A study of Homo sapiens with 4 samples.

Results

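The difference described here is that between 2 RNA-seq libraries from cultures labelled SKOV3, a human ovarian cancer line: one from mock control cells and one from cells in which CRISPR-Cas9 was used to knock out env, the envelope gene, in the HERV-K119 provirus. The series holds 4 libraries, a mock and a knockout library for SKOV3 and for OVCAR3, another ovarian cancer line, with 1 library per group. Cells of all groups, the mock cells included, were transfected and, from about 18 hours later, kept in hygromycin at 100 µg/mL for 2 days. The labels do not say whether the knockout cells were a clone or a pool, nor how many cultures stood behind a library. Genes were taken as measured when they reached 5 CPM (counts scaled to the size of the library) in either SKOV3-labelled library, which 10820 of 52402 gene symbols did. The question the pair answers is which messages differ between knockout and mock cells, and with 1 library on each side no difference has a replicate check and none was tested.

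HERV-K proviruses are remnants of retroviruses that entered the germ line of primate ancestors, and some still carry open reading frames. Env encodes the envelope glycoprotein, which in an infectious virus binds and fuses with the host cell, and HERV-K env RNA and protein are known from several cancers, ovarian cancer among them. The cells studied are epithelial cancer cells in culture, so the pathways listed below are those of growth, metabolism, adhesion, stress and antiviral sensing in such cells.

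Some defining genes went against the SKOV3 label, so the libraries are called SKOV3-labelled throughout. CDKN2A, a cell cycle inhibitor gene that is deleted in SKOV3, had 93.9 and 93.8 CPM in the mock and knockout library. VIM, the mesenchymal filament vimentin, had only 2.02 and 2.41 CPM, and ERBB2, the receptor gene amplified in SKOV3, had 60.6 and 57.3 CPM. The epithelial genes EPCAM (365 and 316 CPM), KRT8 (2084 and 1924 CPM), KRT18 (936 and 879 CPM) and CDH1 (54.9 and 50.5 CPM) were present, PAX8 had 4.91 and 5.803 CPM, WT1 had no count in either library and MUC16, the CA125 gene, had 1 count in each. EPCAM, KRT8 and KRT18 were slightly lower in the knockout library, with log2 ratios of knockout over mock from -0.20 to -0.09, and the counting intervals of the other ratios held 0. Markers of other cell types were at like levels in both: the fibroblast list summed to 18.7 and 20.1 CPM with 5 of 10 genes at 0 in both, the leukocyte list to 39.0 and 38.2 CPM with 6 of 11 at 0 (PTPRC among them), and the endothelial list to 52.8 and 53.5 CPM with PECAM1 at 0. RNA of the targeted provirus was not analysed here, and the knockout is known from the labels alone. The libraries held 22057693 (mock) and 15145483 (knockout) counts, where a count of 0 allows up to 0.136 and 0.198 CPM.

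Knockout and mock cells had nearly the same messages at nearly the same levels. The log2 ratio of knockout over mock had a median of -0.01 over the measured genes and a standard deviation of 0.216, with the middle 95% of genes between -0.40 and 0.45. In the OVCAR3-labelled pair the same genes had a standard deviation of 0.940. Because shifts were small, a log2 ratio of 0.3 was taken as the size at which a gene is counted: 780 genes (7.21%) were at or above 0.3 and 678 (6.27%) at or below -0.3. Past 2-fold were 5 genes upward (0.0462%) and 8 downward (0.0739%). Ratios were above 0 for 47.3% of genes and below 0 for 52.7%. The balance depends on the scaling: with libraries scaled by their totals, which adds 0.04 to each ratio, 1020 genes were at or above 0.3 and 488 at or below -0.3, and 55.4% of genes were above 0. Levels given as a pair are those of the mock and then the knockout library, and the value in brackets after them is the log2 ratio with its exact 95% interval, which covers counting error only. These intervals lay wholly above 0 for 1943 genes (18%) and wholly below 0 for 2449 (22.6%), so an interval clear of 0 is common in this pair and says nothing about how another culture would behave.

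**Figure D1:**
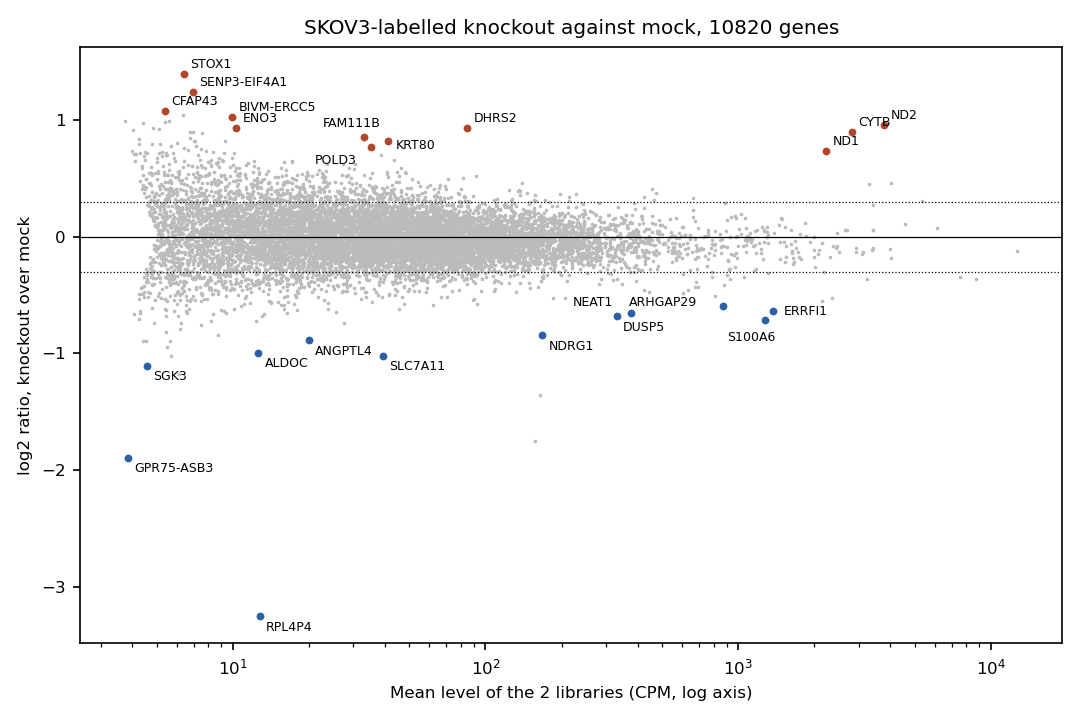
Log2 ratio of knockout over mock (vertical axis) against the mean level of both SKOV3-labelled libraries in CPM (horizontal log axis) for the 10820 measured genes, 1 point each; dotted lines mark 0.3 and -0.3, and colour marks the 12 highest and 12 lowest genes by the interval limit nearest 0, small RNAs and symbols of the LOC and clone kind aside. Most points lie between the dotted lines, the spread widens toward low levels, and a few well-counted genes such as NDRG1, DUSP5 and ERRFI1 stand below the cloud.

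Among the genes lower in the knockout library, several are well counted and have known roles in cystine uptake, hypoxia and growth factor signalling. SLC7A11, the cystine importer that feeds glutathione synthesis (chromosome 4, 138164097 to 138242349), had 52.8 CPM in mock and 25.9 CPM in knockout cells (log2 ratio -1.02, interval -1.19 to -0.86). NDRG1, a stress gene induced by hypoxia, had 215 CPM in the mock and 119.8 CPM in the knockout library, a log2 ratio of -0.85 (-0.92 to -0.77). Their levels were thus 0.49 and 0.56 times those of the mock library. S100A6, a calcium-binding protein (chromosome 1, 153534599 to 153535991), had 1584 CPM in mock and 967 CPM in knockout cells (log2 ratio -0.71, interval -0.74 to -0.68). ERRFI1, the feedback inhibitor of the EGF receptor also called MIG6 (chromosome 1, 8011727 to 8026309), had 1674 CPM in the mock and 1076 CPM in the knockout library, a log2 ratio of -0.64 (-0.66 to -0.61). DUSP5, a nuclear phosphatase of ERK (chromosome 10, 110497907 to 110511533), had 407 CPM in mock and 254 CPM in knockout cells (log2 ratio -0.68, interval -0.74 to -0.63). These 3 genes rest on 3892 counts or more in each library, so counting error is small beside their ratios. ARHGAP29, a GTPase-activating protein (chromosome 1, 94168905 to 94314592), had 1045 CPM in the mock and 693 CPM in the knockout library, a log2 ratio of -0.59 (-0.63 to -0.56). NEAT1, the long non-coding RNA that builds paraspeckles (chromosome 11, 65422798 to 65445540), had 462 CPM in mock and 294 CPM in knockout cells (log2 ratio -0.65, interval -0.70 to -0.60). In RNA from a whole culture, fewer cells with a message and less of it per cell cannot be told apart.

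At lower counts, SGK3, a serum- and glucocorticoid-regulated kinase whose exons a readthrough locus shares, had 6.29 CPM in the mock and 2.87 CPM in the knockout library, a log2 ratio of -1.10 (-1.66 to -0.63), on 137 and 44 counts. The hypoxia-inducible genes ALDOC and ANGPTL4 were also among the 12 lowest and are described with their group below.

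Of the 12 highest genes, 3 are mitochondrial messages, described below. DHRS2, a short-chain dehydrogenase (chromosome 14, 23630115 to 23645639), was the best counted of the nuclear ones, at 58.2 CPM in mock and 111 CPM in knockout cells (log2 ratio 0.93, interval 0.82 to 1.04). FAM111B, a protease gene whose message is known to peak in the S phase (chromosome 11, 59107237 to 59127412), had 23.6 CPM in the mock and 42.6 CPM in the knockout library, a log2 ratio of 0.85 (0.68 to 1.02). POLD3, a subunit of DNA polymerase delta (chromosome 11, 74592582 to 74669341), had 26.1 CPM in mock and 44.5 CPM in knockout cells (log2 ratio 0.77, interval 0.61 to 0.93). KRT80, an epithelial keratin (chromosome 12, 52168996 to 52192014), had 29.7 CPM in the mock and 52.5 CPM in the knockout library, a log2 ratio of 0.82 (0.67 to 0.97). Their levels were thus 1.70 (POLD3) to 1.90 (DHRS2) times those of the mock library. Near the 5 CPM minimum, STOX1, a winged-helix DNA-binding protein, had 3.49 CPM in mock and 9.32 CPM in knockout cells (log2 ratio 1.39, interval 1.01 to 1.84). ENO3, the muscle-type enolase, had 7.07 CPM in the mock and 13.6 CPM in the knockout library, a log2 ratio of 0.93 (0.63 to 1.25). CFAP43, an axoneme protein of cilia and flagella, had 3.44 CPM in mock and 7.37 CPM in knockout cells (log2 ratio 1.07, interval 0.66 to 1.54). These 3 rest on at most 208 counts in a library and their intervals are wide. STOX1 and CFAP43 reached 5 CPM in the knockout library only, so they count as measured through their higher knockout level.

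Several of the most extreme ratios belong to features that share sequence with others, and they are uncertain. RPL4P4, a processed pseudogene of a ribosomal protein gene, had 23.2 CPM in the mock and 2.35 CPM in the knockout library, a log2 ratio of -3.25 (-3.84 to -2.82). RN7SL1 and RN7SL2, near-identical RNAs of the signal recognition particle, had 236 and 92.2 CPM (log2 ratio -1.36) and 242 and 71.9 CPM (-1.75). Small structured RNAs like these are not messages. Readthrough loci, which share exons with 2 neighbours, lay on both sides: GPR75-ASB3 had 6.11 and 1.56 CPM (-1.89), SENP3-EIF4A1 4.09 and 9.78 CPM (1.24) and BIVM-ERCC5 6.52 and 13.4 CPM (1.02). The uncharacterised loci LOC100129940 (-1.18), LOC105376781 (-1.02) and LOC105370363 (1.04) complete the genes past 2-fold.

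Several groups of genes lay largely on one side of 0. DNA replication, mitosis and homologous recombination genes were mostly higher in the knockout library, and hypoxia-inducible genes, invasion proteases and chaperones of the endoplasmic reticulum were mostly lower. Shifts of the medians were small, at most 0.29 on the log2 scale among lists with 10 or more measured members.

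**Figure D2:**
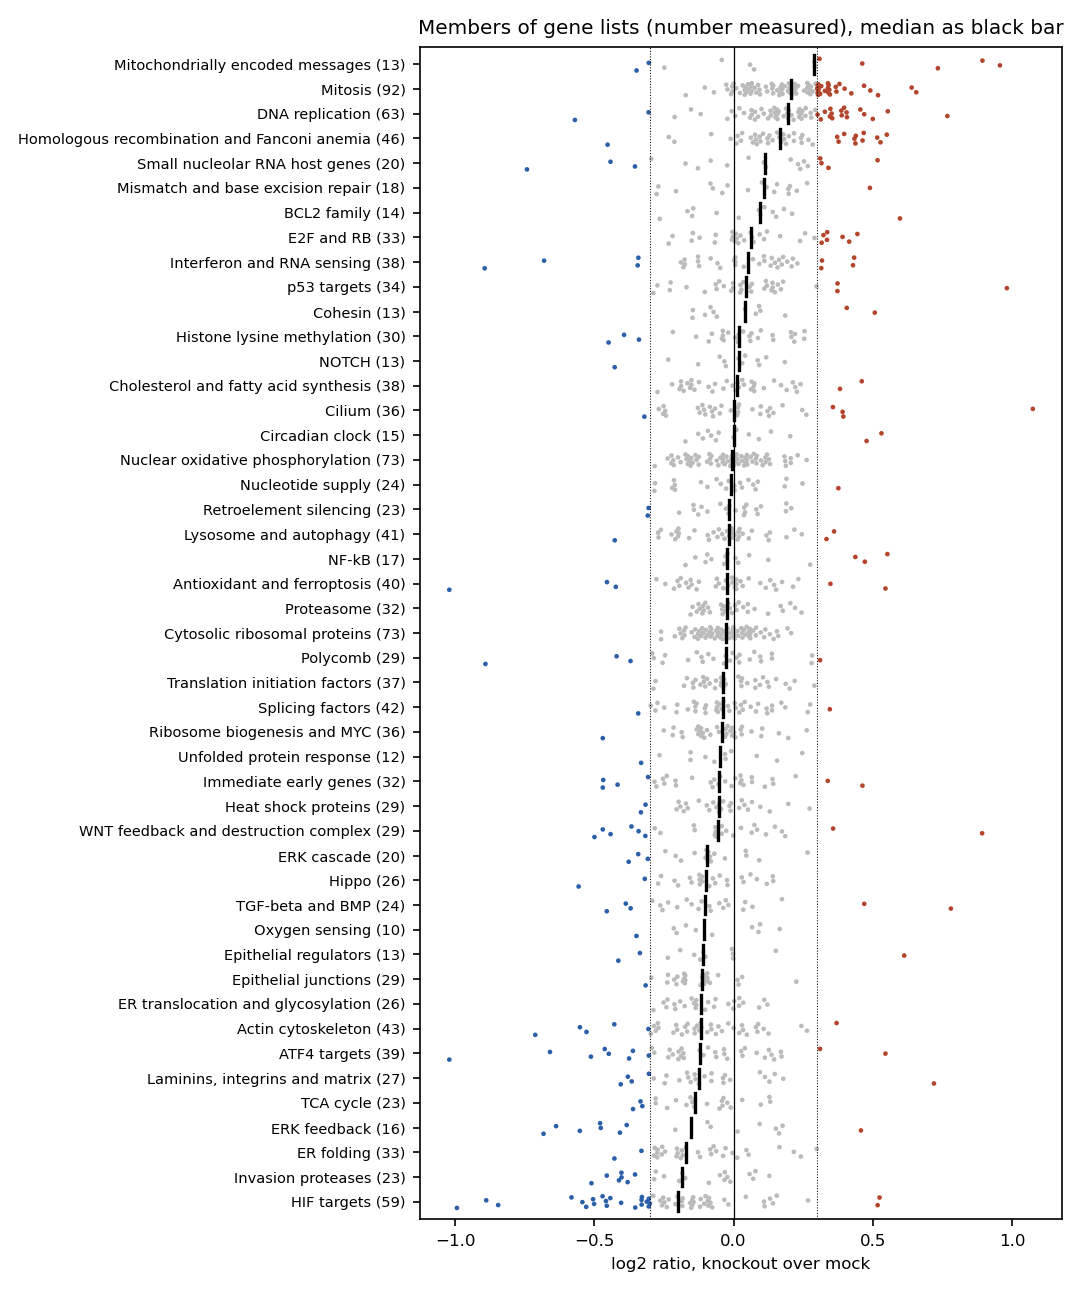
Log2 ratio of knockout over mock (horizontal axis) for the measured members of every gene list with 10 or more of them, 1 point a gene, ordered by the median (black bar); red points are at or above 0.3 and blue ones at or below -0.3. Mitochondrial messages, mitosis, DNA replication and recombination stand at the top, and HIF targets, with a median of -0.20, at the bottom.

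Hypoxia-inducible factors (HIF) are transcription factors whose alpha subunit is hydroxylated by oxygen-dependent enzymes, bound by VHL and degraded. When oxygen is short, or when growth signals raise its synthesis, the alpha subunit persists and activates genes of glucose uptake, glycolysis, angiogenesis and mitophagy. Of 59 measured HIF targets, 50 were below 0 in the knockout library and 9 above it (84.7% below, against 52.7% of all measured genes). At or below -0.3 were 21 (35.6%, against 6.27%) and at or above 0.3 were 2 (3.39%, against 7.21%). Their median was -0.20, against -0.01 over all measured genes.

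All 22 measured genes of glucose uptake, glycolysis and lactate export were below 0, with ratios from -0.99 to -0.08 and a median of -0.22. SLC2A1, the glucose transporter GLUT1, had 219 CPM in mock and 152 CPM in knockout cells (log2 ratio -0.53, interval -0.60 to -0.46). HK2, the hexokinase that traps glucose in the cell, had 106 CPM in the mock and 72.8 CPM in the knockout library, a log2 ratio of -0.54 (-0.65 to -0.44). ALDOC, a fructose bisphosphate aldolase, had 16.8 CPM in mock and 8.41 CPM in knockout cells (log2 ratio -0.99, interval -1.30 to -0.71). PGK1, phosphoglycerate kinase, had 489 and 356 CPM (-0.46, interval -0.51 to -0.41) and LDHA, the lactate dehydrogenase subunit that serves lactate formation, 1009 and 803 CPM (-0.33, interval -0.36 to -0.30). SLC16A3, the lactate exporter MCT4, had 190.2 and 149 CPM (-0.35, interval -0.43 to -0.28). The abundant enzymes GAPDH (4277 and 3765 CPM), ENO1 (3253 and 2927 CPM) and PKM (1711 and 1549 CPM) had smaller ratios of -0.18, -0.15 and -0.14.

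The same direction held for 7 of 7 measured genes of glycogen and lipid storage (median -0.33) and 5 of 5 of secreted factors and pH control (median -0.29). ANGPTL4, which is secreted and blocks lipoprotein lipase, had 26.03 CPM in the mock and 14.02 CPM in the knockout library, a log2 ratio of -0.89 (-1.13 to -0.66). GBE1, the glycogen branching enzyme, had 48.8 and 34.5 CPM (-0.50, interval -0.66 to -0.35), HILPDA, a lipid droplet protein, 16.9 and 12.8 CPM (-0.40, interval -0.66 to -0.15), and PLIN2, a coat protein of lipid droplets, 58.2 and 47.1 CPM (-0.30, interval -0.44 to -0.17). VEGFA, the main angiogenic growth factor, had 68.2 and 55.2 CPM (-0.30, interval -0.43 to -0.18). Of the 6 collagen hydroxylases and cross-linking genes, 5 were below 0. LOXL2, a lysyl oxidase, had 19.2 and 13.5 CPM (-0.50, interval -0.76 to -0.26).

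The 14 targets in mitophagy, stress and transcription were divided, with 8 below and 6 above 0. DDIT4, an inhibitor of mTORC1 also called REDD1, had 74.4 CPM in mock and 49.7 CPM in knockout cells (log2 ratio -0.58, interval -0.71 to -0.46). BNIP3 and BNIP3L, mitophagy receptors, had ratios of -0.31 (-0.45 to -0.18) and -0.47 (-0.64 to -0.30). BHLHE40, a transcriptional repressor, had 173 and 127 CPM (-0.44, interval -0.52 to -0.36), while its paralog BHLHE41 was higher in the knockout library at 23.4 and 33.6 CPM (0.52, interval 0.35 to 0.71). ARRDC3, an arrestin-like adaptor, was also higher at 75.2 and 108 CPM (0.52, interval 0.42 to 0.62). BHLHE41 and ARRDC3 were the only HIF targets at or above 0.3. Among the 10 measured genes of oxygen sensing itself, 6 were below 0 (median -0.11). HIF1A, the HIF-1 alpha subunit, had 177 and 152 CPM (-0.21, interval -0.29 to -0.14), EPAS1, the HIF-2 alpha subunit, 60.6 and 47.5 CPM (-0.35, interval -0.48 to -0.22), and VHL 86.4 and 78.6 CPM (-0.14, interval -0.24 to -0.03). EP300, a coactivator, was above 0 at 62.9 and 70.6 CPM (0.17, interval 0.05 to 0.28).

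**Figure D3:**
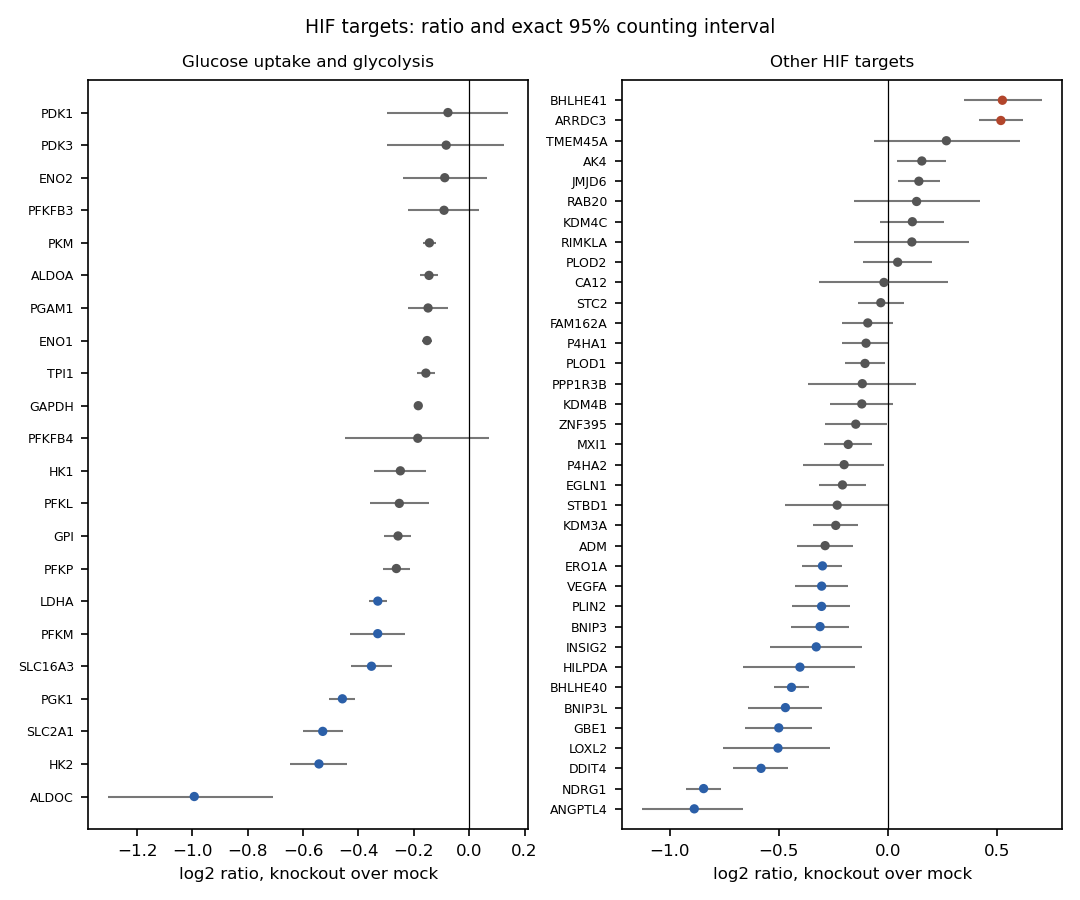
Log2 ratio of knockout over mock (horizontal axis) with its exact 95% counting interval (bar) for all measured HIF targets but 1 that is not reported here, glycolytic genes on the left and the others on the right; blue marks ratios at or below -0.3 and red at or above 0.3. No glycolytic gene lies above 0, and ALDOC, ANGPTL4 and NDRG1 have the lowest ratios.

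HIF binds a short core, written here as ACGTG or GCGTG and searched on both strands, in a window from 250 bases before to 50 after the first start that the RefSeq promoter table lists for a gene (GRCh38.p14). The palindrome CACGTG is matched on both strands and counts as 2 overlapping matches. The core stood in 38 of 49 HIF target windows found in the promoter table (77.6%), in 48.4% of all 27305 windows and in 65.2% of those of measured genes. Targets with and without it had median ratios of -0.20 and -0.18. A match describes letters only, and its absence from the window tells nothing of the factor. The 250 bases before the start of ALDOC (chr17:28576896-28577145, minus strand) and PGK1 (chrX:78103998-78104247, plus strand), both among the glycolytic genes given above, are shown 5′ to 3′ with the core in capitals.
ALDOC: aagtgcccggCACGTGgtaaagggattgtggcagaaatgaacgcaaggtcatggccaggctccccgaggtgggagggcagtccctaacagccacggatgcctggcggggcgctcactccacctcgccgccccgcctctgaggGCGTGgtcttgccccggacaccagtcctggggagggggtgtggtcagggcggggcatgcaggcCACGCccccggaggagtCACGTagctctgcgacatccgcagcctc
PGK1: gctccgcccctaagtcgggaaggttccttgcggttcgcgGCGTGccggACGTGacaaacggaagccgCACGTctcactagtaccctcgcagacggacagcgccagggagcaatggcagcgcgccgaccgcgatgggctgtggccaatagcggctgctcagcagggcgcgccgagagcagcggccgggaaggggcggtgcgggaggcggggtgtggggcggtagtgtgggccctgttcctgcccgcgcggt
ALDOC holds 5 matches in the stretch shown and PGK1 3.

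ERK signalling passes from receptors such as the EGF receptor through RAS, RAF and MEK to the kinase ERK, which switches on its own inhibitors, so that the level of these feedback genes is often read as a mark of pathway output. Of 16 measured feedback genes, 10 were below 0 and 6 above, and 7 were at or below -0.3 (43.8%, against 6.27% of all measured genes), with a median of -0.15. The members were unlike one another. Of 7 measured dual-specificity phosphatases 4 were above 0 and 3 below, with a median of 0.01, and the 3 below were all at or below -0.3. Sprouty and SPRED genes were below 0 in 4 of 5 cases (median -0.09), and receptor and RAS inhibitors in 3 of 4 (median -0.43). Beside DUSP5 and ERRFI1, given above, DUSP6, the cytoplasmic ERK phosphatase, had 154 CPM in the mock and 111 CPM in the knockout library, a log2 ratio of -0.48 (-0.56 to -0.39). DUSP1, a phosphatase of several MAP kinases, had 49.3 CPM in mock and 37.1 CPM in knockout cells (log2 ratio -0.41, interval -0.56 to -0.26). RASA1, a GTPase-activating protein of RAS, had 35.4 CPM in the mock and 25.4 CPM in the knockout library, a log2 ratio of -0.48 (-0.66 to -0.30). DUSP4, another nuclear phosphatase, was above 0 at 239.6 and 268 CPM (0.16, interval 0.10 to 0.22), and the Sprouty genes SPRY1 and SPRY2 stood on opposite sides at -0.55 (-0.95 to -0.18) and 0.46 (0.11 to 0.82), both under 10 CPM.

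The ligands that feed this pathway were lower as well, in 4 of 4 measured cases (median -0.29). AREG, amphiregulin, had 707 CPM in mock and 506 CPM in knockout cells (log2 ratio -0.48, interval -0.52 to -0.44). EREG, epiregulin, had 884 CPM in the mock and 696 CPM in the knockout library, a log2 ratio of -0.34 (-0.38 to -0.31). TGFA, transforming growth factor alpha, had 101 CPM in mock and 85.8 CPM in knockout cells (log2 ratio -0.24, interval -0.34 to -0.14). Of 20 measured genes of the cascade, 16 were below 0, with a median of -0.09 (-0.058 when libraries were scaled by their totals). MAP2K1, which encodes MEK1, had 66.5 and 51.2 CPM (-0.38, interval -0.50 to -0.25), and the adaptor SHC1 109.7 and 88.6 CPM (-0.31, interval -0.41 to -0.21). So ligands, some cascade members and some feedback genes were all lower, by less than 0.7 on the log2 scale.

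Immediate early genes, which answer growth factor signals within minutes to hours, were divided: 19 of 32 measured members were below 0 and 13 above, with a median of -0.05. MYC, the growth-promoting transcription factor, had 513 CPM in the mock and 371 CPM in the knockout library, a log2 ratio of -0.47 (-0.52 to -0.42). PHLDA1, a pleckstrin-homology protein, had 1006 CPM in mock and 754 CPM in knockout cells (log2 ratio -0.42, interval -0.45 to -0.38). ZFP36, a protein that destabilises messages, had 60.5 CPM in the mock and 43.7 CPM in the knockout library, a log2 ratio of -0.47 (-0.61 to -0.33). NR4A1, a nuclear receptor, was higher at 22.5 and 31.04 CPM (0.46, interval 0.28 to 0.65), as was KLF10, a Kruppel-like factor, at 189.6 and 239.6 CPM (0.34, interval 0.27 to 0.40). Ribosome biogenesis genes and other MYC targets had a median of -0.04, and of -0.0053 with libraries scaled by their totals.

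Proteins that enter the endoplasmic reticulum (ER) are folded by chaperones, and sensors of unfolded protein raise these chaperones through the transcription factors ATF6, XBP1 and ATF4. Of 33 measured ER folding genes, 26 were below 0 and 7 above, with a median of -0.17, yet only 2 were at or below -0.3 (6.06%, against 6.27% of all measured genes). The shift was therefore broad and small. HSPA5, the chaperone BiP, had 777 CPM in mock and 578 CPM in knockout cells (log2 ratio -0.43, interval -0.47 to -0.39). HSP90B1, the ER form of HSP90 also called GRP94, had 753 CPM in the mock and 623 CPM in the knockout library, a log2 ratio of -0.27 (-0.31 to -0.24). PDIA4, a disulfide isomerase, had 153 CPM in mock and 128 CPM in knockout cells (log2 ratio -0.26, interval -0.34 to -0.18). Of 13 lectin chaperones, disulfide isomerases and prolyl isomerases, 12 were below 0, among them PPIB (-0.26, interval -0.31 to -0.20) and FKBP2 (-0.33, interval -0.49 to -0.18). CNPY2 (0.30, interval 0.18 to 0.42) and DNAJC10 (0.22, interval 0.13 to 0.31) were above 0. Of 12 measured genes of the unfolded protein response, 9 were below 0 and 3 above (median -0.05), with XBP1 at 113 and 93.7 CPM (-0.27, interval -0.36 to -0.17) and CREB3, a transcription factor, at 56.9 and 67.5 CPM (0.25, interval 0.13 to 0.37). Genes of translocation into the ER and glycosylation were below 0 in 19 of 26 cases (median -0.12), with SEC61G, a channel subunit, at -0.29 (-0.40 to -0.17) and STT3B, an oligosaccharyltransferase subunit, at -0.21 (-0.27 to -0.15).

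ATF4 acts in the integrated stress response, where it activates amino acid transport, serine and asparagine synthesis and tRNA charging. Its own message was slightly higher in the knockout library, at 927 CPM in the mock and 1033 CPM in the knockout library, a log2 ratio of 0.16 (0.13 to 0.19). Of 39 measured targets, 27 were below 0 and 12 above (median -0.12), and 8 were at or below -0.3 (20.5%, against 6.27%). SLC7A11 had the lowest ratio. SLC38A2, a neutral amino acid transporter, had 949 CPM in mock and 666 CPM in knockout cells (log2 ratio -0.51, interval -0.55 to -0.48). ASNS, asparagine synthetase, had 126 CPM in the mock and 92.6 CPM in the knockout library, a log2 ratio of -0.45 (-0.54 to -0.36). PSAT1, of serine synthesis, had 85.3 CPM in mock and 61.9 CPM in knockout cells (log2 ratio -0.46, interval -0.58 to -0.35). The tRNA synthetase and tRNA export genes were below 0 in 11 of 13 cases, with a median of -0.19, and EPRS, which charges glutamate and proline tRNA, had 322 and 251 CPM (-0.36, interval -0.42 to -0.30). Enzymes of amino acid and one-carbon metabolism were split, 5 below and 4 above 0 (median -0.07), as were regulators and secreted factors, 5 and 5 (median 0.02), and 6 of 7 transporters were below 0. Above 0, CHAC1, a glutathione-degrading enzyme, had 3.76 and 5.54 CPM (0.54, interval 0.10 to 1.01) and GDF15, a secreted stress factor, 621 and 699 CPM (0.17, interval 0.13 to 0.21). NUPR1, a stress-induced regulator, did not reach 5 CPM in either library.

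The antioxidant list, targets of NRF2 and ferroptosis genes, had a median of -0.02 (0.013 with libraries scaled by their totals), with 23 of 40 members below 0. At or below -0.3 were 3 members (7.5%, near the 6.27% of all measured genes), and 2 were at or above 0.3 (5%, against 7.21%). The 3 lower ones were SLC7A11, TXNRD1 and GCLC. TXNRD1, thioredoxin reductase, had 733 CPM in the mock and 535 CPM in the knockout library, a log2 ratio of -0.45 (-0.49 to -0.42). GCLC, the catalytic subunit of glutamate cysteine ligase, had 78.1 CPM in mock and 58.2 CPM in knockout cells (log2 ratio -0.42, interval -0.54 to -0.31). OSGIN1 (0.35, interval 0.19 to 0.51) and FTL, ferritin light chain (0.17, interval 0.14 to 0.20), were above 0.

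For both stress groups the promoters were searched on both strands. The ER stress element (CCAAT, 9 bases of any kind, CCACG) stood in 6 of 30 ER folding windows (20%) and in 0.0806% of all windows and in 0.147% of those of measured genes. The amino acid response core TGATGNAA stood in 12 of 33 windows of ATF4 targets (36.4%) and in 3.67% of all and 1.52% of those of measured genes. Members with and without the motif had medians of -0.14 and -0.16 for ER folding, and -0.11 and -0.18 for ATF4 targets. HSPA5 (chr9:125241344-125241593, minus strand) and ASNS (chr7:97872409-97872658, minus strand), the former the lowest of the ER folding genes, are shown with the match in capitals. The listed start of ASNS lies within the RefSeq span of the gene, which runs from 97851677 to 97928441.
HSPA5: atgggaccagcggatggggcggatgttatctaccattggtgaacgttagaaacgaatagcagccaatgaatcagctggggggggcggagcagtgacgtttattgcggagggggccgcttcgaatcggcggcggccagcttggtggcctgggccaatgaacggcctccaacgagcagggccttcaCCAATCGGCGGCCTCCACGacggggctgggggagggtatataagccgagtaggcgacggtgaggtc
ASNS: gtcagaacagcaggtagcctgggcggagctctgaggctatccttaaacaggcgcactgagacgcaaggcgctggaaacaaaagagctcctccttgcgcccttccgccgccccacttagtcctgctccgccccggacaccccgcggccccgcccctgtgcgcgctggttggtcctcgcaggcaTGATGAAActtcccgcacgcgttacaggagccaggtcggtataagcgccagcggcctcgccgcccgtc

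DNA replication starts when the MCM helicase is loaded on origins by ORC, CDC6 and CDT1, is fired by CDC7 and CDC45 and proceeds through the polymerases and the sliding clamp. These genes are under E2F control and are highest at the start of the S phase, while genes of mitosis are raised later by the MuvB complex, MYBL2 and FOXM1. Of 63 measured replication genes, 56 were above 0 in the knockout library and 7 below (88.9% above, against 47.3% of all measured genes). At or above 0.3 were 17 (27%, against 7.21%), and the median was 0.20. More cells in a phase and more message per cell in it cannot be told apart here.

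The shift ran through every step of replication, with medians between 0.19 and 0.21 in 5 functional groups. CDT1, which loads the helicase, had 118 CPM in the mock and 162 CPM in the knockout library, a log2 ratio of 0.45 (0.37 to 0.54). CDC6, its partner, had 119 CPM in mock and 156 CPM in knockout cells (log2 ratio 0.39, interval 0.31 to 0.47). CLSPN, the fork protein claspin, had 67.3 CPM in the mock and 95.2 CPM in the knockout library, a log2 ratio of 0.50 (0.39 to 0.61). Licensing genes were above 0 in 15 of 16 cases and clamp, clamp loader, Okazaki fragment and RPA genes in 14 of 14. ATAD2, a chromatin ATPase, had 392 CPM in mock and 519.6 CPM in knockout cells (log2 ratio 0.41, interval 0.36 to 0.45). ASF1B, a histone chaperone, had 38.9 CPM in the mock and 57.1 CPM in the knockout library, a log2 ratio of 0.55 (0.42 to 0.69). PCNA, the clamp itself, had a smaller ratio at 128 and 143 CPM (0.16, interval 0.08 to 0.24). Polymerase delta was split, since POLD3 was among the highest genes of the pair and its small subunit POLD4 was lower, at 16.99 CPM in mock and 11.4 CPM in knockout cells (log2 ratio -0.57, interval -0.84 to -0.31). UHRF1, which maintains DNA methylation, was lower as well, at 74.8 CPM in the mock and 60.5 CPM in the knockout library, a log2 ratio of -0.31 (-0.42 to -0.19).

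The E2F and RB list had 23 of 33 members above 0 (69.7%, against 47.3% of all measured genes) and a median of 0.06. At or above 0.3 were 7 (21.2%, against 7.21%), and none was at or below -0.3. RB1, the retinoblastoma gene that restrains E2F, had 93.7 CPM in mock and 96.2 CPM in knockout cells (log2 ratio 0.04, interval -0.06 to 0.14). E2F7, a repressor E2F, had 33.4 and 44.5 CPM (0.41, interval 0.26 to 0.57), CCNE2, cyclin E2, 26.9 and 36.6 CPM (0.44, interval 0.28 to 0.62), and RBL1, the pocket protein p107, 29.1 and 38.1 CPM (0.39, interval 0.23 to 0.56). CDK6 was below 0 at 202 and 172 CPM (-0.23, interval -0.30 to -0.16). Genes of nucleotide supply did not share the shift, with 12 of 24 above 0 and a median of -0.01. TK1, thymidine kinase, was its one member at or above 0.3, at 127 and 165 CPM (0.38, interval 0.30 to 0.45), while the purine synthesis genes GART (-0.28, interval -0.37 to -0.20), PPAT (-0.28, interval -0.36 to -0.20) and ATIC (-0.21, interval -0.29 to -0.13) were below 0.

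Of 92 measured mitosis genes, 84 were above 0 and 8 below (91.3% above, against 47.3%), 28 were at or above 0.3 (30.4%, against 7.21%) and none was at or below -0.3. The median was 0.21. FOXM1, a transcription factor of this program, had 33.7 CPM in the mock and 53.1 CPM in the knockout library, a log2 ratio of 0.66 (0.51 to 0.80). CENPM, a centromere protein, had 13.4 CPM in mock and 20.9 CPM in knockout cells (log2 ratio 0.64, interval 0.41 to 0.88). SKA3, which holds kinetochores to microtubules, had 59.3 CPM in the mock and 83.4 CPM in the knockout library, a log2 ratio of 0.49 (0.38 to 0.60). Centromere and kinetochore genes had the highest median of the functional groups, 0.29, with 11 of 23 at or above 0.3. BIRC5, survivin, of the chromosomal passenger complex, had 118 CPM in mock and 155 CPM in knockout cells (log2 ratio 0.40, interval 0.32 to 0.48). MKI67, the proliferation antigen Ki-67, had 414 CPM in the mock and 515 CPM in the knockout library, a log2 ratio of 0.31 (0.27 to 0.36). Of the 15 cyclin, CDK1 and entry genes 13 were above 0 and 2 below. The 2 below were CCNB1, cyclin B1, at 125 CPM in mock and 116 CPM in knockout cells (log2 ratio -0.10, interval -0.19 to -0.02), and CDC25B, the phosphatase that activates CDK1, at 114 CPM in the mock and 101 CPM in the knockout library, a log2 ratio of -0.17 (-0.26 to -0.08). Anaphase and checkpoint genes had a median of 0.11.

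Homologous recombination repairs broken and stalled forks, and Fanconi anemia proteins act on crosslinked DNA. Of 46 measured genes, 41 were above 0 (89.1%, against 47.3%) and 11 at or above 0.3 (23.9%, against 7.21%), with a median of 0.17. All 14 genes of strand exchange were above 0. BRCA1 had 56.01 CPM in mock and 75.96 CPM in knockout cells (log2 ratio 0.44, interval 0.32 to 0.56). XRCC3, which acts in strand exchange, had 45.6 CPM in the mock and 63.05 CPM in the knockout library, a log2 ratio of 0.47 (0.34 to 0.60). BRIP1, a helicase that binds BRCA1, had 37.3 CPM in mock and 53.3 CPM in knockout cells (log2 ratio 0.52, interval 0.37 to 0.66). BLM, the Bloom helicase, had 36.2 and 53.01 CPM (0.55, interval 0.41 to 0.69), whereas the Werner helicase WRN had 68.3 and 58.1 CPM (-0.23, interval -0.35 to -0.11) and RMI2, a partner of BLM, 6.11 and 4.43 CPM (-0.45, interval -0.91 to -0.03). Mismatch and base excision repair genes had 11 of 18 members above 0 (61.1%) and a median of 0.11, with 1 at or above 0.3 (5.56%, against 7.21%). PARP1, which senses strand breaks, had 217 and 188 CPM (-0.21, interval -0.27 to -0.14).

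**Figure D4:**
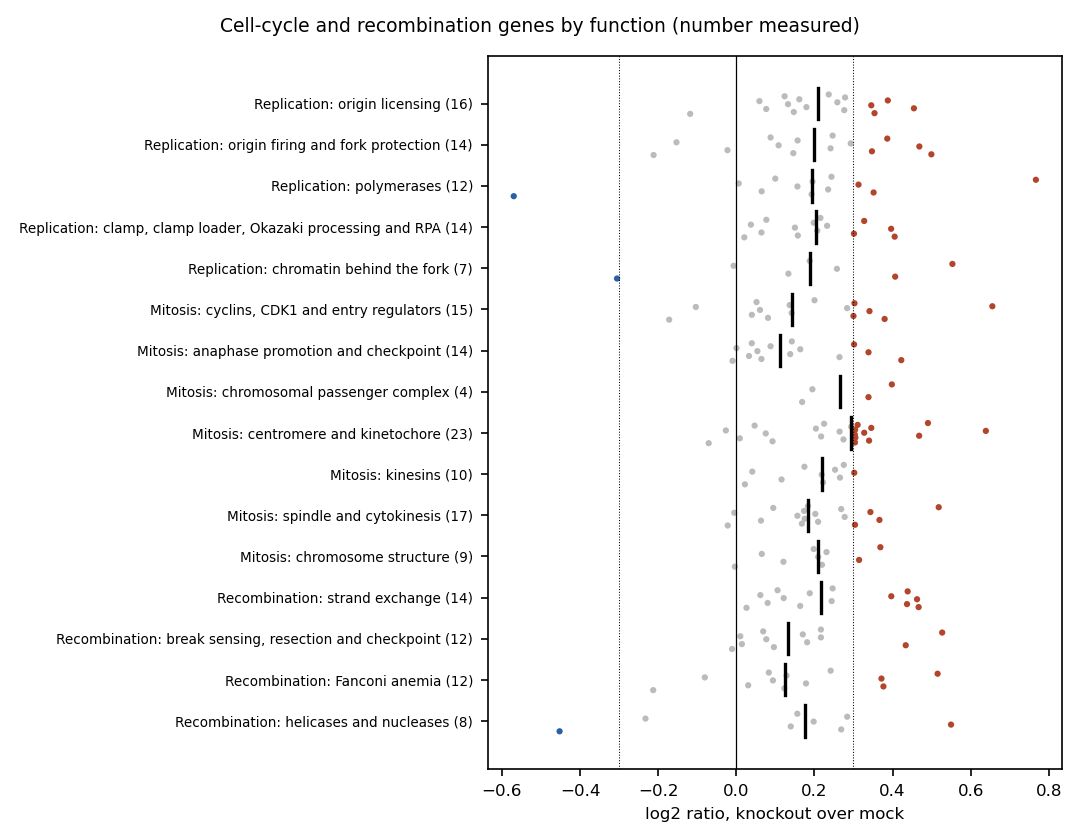
Log2 ratio of knockout over mock (horizontal axis) for measured genes of DNA replication, mitosis and recombination, 1 point a gene, split by function, with the median as a black bar; dotted lines mark 0.3 and -0.3. Every functional group has its median above 0, and centromere and kinetochore genes have the highest, at 0.29.

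A pair of promoter elements belongs to these programs. The E2F core (TTCCCGC or TTGGCGC or TTCGCGC or TTGCCGC, both strands) stood in 35 of 55 replication windows (63.6%) and in 13.1% of all windows and in 21.7% of those of measured genes. Replication genes with it had a median ratio of 0.24, and those without it 0.14. The CHR core (TTTGAA or the palindrome TTCGAA, both strands), bound by MuvB, stood in 51 of 78 mitosis windows (65.4%) and in 16.6% of all windows and in 10.5% of those of measured genes, with medians of 0.21 with it and 0.17 without. Both programs were thus above 0 with and without the letters searched. CDT1 (chr16:88803539-88803788, plus strand) and TOP2A, the topoisomerase of chromosome condensation (chr17:40417897-40418146, minus strand; 199 and 257 CPM, log2 ratio 0.37, interval 0.31 to 0.43), are shown with the matches in capitals.
CDT1: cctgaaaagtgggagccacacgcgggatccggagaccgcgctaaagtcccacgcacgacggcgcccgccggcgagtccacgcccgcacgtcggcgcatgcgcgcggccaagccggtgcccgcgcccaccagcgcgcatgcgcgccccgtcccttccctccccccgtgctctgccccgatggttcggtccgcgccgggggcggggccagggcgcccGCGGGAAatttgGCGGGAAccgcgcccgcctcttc
TOP2A: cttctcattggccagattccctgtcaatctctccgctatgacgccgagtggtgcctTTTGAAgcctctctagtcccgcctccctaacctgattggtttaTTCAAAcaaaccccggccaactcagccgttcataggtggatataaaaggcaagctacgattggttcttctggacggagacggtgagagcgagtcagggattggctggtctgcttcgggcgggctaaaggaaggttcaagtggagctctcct

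Replication-dependent histones, whose messages lack a poly(A) tail and peak in the S phase, had 8 measured members with a median of 0.25, 6 of them above 0. HIST1H2BK, which is known to make polyadenylated messages as well, was among the better counted, at 21.6 CPM in the mock and 26.7 CPM in the knockout library, a log2 ratio of 0.30 (0.11 to 0.50). HIST1H2AC (3.08 and 5.41 CPM), HIST1H4B (3.397 and 5.54 CPM) and HIST2H2BF (3.03 and 5.48 CPM) were near the 5 CPM minimum, and histone genes share sequence, so their counts are uncertain. They reached 5 CPM in the knockout library only, so the filter took them in because of their higher knockout level. The median and the count above 0 are tilted upward by this, and no direction is read from the list.

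Of 34 measured p53 targets 21 were above 0 (61.8%, against 47.3% of all measured genes), with a median of 0.05. At or above 0.3 were 3 (8.82%, near the 7.21% of all measured genes). CDKN1A, the p21 gene, was level at 838 CPM in mock and 852 CPM in knockout cells (log2 ratio 0.02, interval -0.01 to 0.06). MDM2, the ligase of p53, had 411 CPM in the mock and 532 CPM in the knockout library, a log2 ratio of 0.37 (0.33 to 0.42). TP53I3 had 14.3 and 18.6 CPM (0.37, interval 0.14 to 0.61), DDB2, of nucleotide excision repair, 77.9 and 95.7 CPM (0.30, interval 0.20 to 0.40), and SPATA18, of mitochondrial quality control, 3.58 and 7.17 CPM (0.98, interval 0.57 to 1.44). CCNG1 (-0.27, interval -0.39 to -0.16) and MDM4 (-0.29, interval -0.39 to -0.19) were below 0. In the BCL2 family (median 0.09), BCL2 had 5.05 and 7.69 CPM (0.60, interval 0.22 to 1.00), while BCL2L1, which encodes BCL-XL, had 204 and 169.8 CPM (-0.27, interval -0.34 to -0.20) and MCL1 244 and 220.1 CPM (-0.15, interval -0.21 to -0.09). The 2 survival genes with the higher counts were thus below 0.

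Adhesion and shape genes were mostly lower in the knockout library. Of 43 measured actin cytoskeleton genes, 30 were below 0 (median -0.12) and 5 at or below -0.3 (11.6%, against 6.27%). ACTG1, gamma actin, had 2558 CPM in mock and 1745 CPM in knockout cells (log2 ratio -0.55, interval -0.57 to -0.53). EZR, ezrin, which ties actin to the membrane, had 2784 CPM in the mock and 1931 CPM in the knockout library, a log2 ratio of -0.53 (-0.55 to -0.51). FLNA, the crosslinker filamin A, had 794 CPM in mock and 590.1 CPM in knockout cells (log2 ratio -0.43, interval -0.47 to -0.39). Among actins, crosslinkers and membrane linkers 9 of 11 were below 0, with a median of -0.27, while the myosin light chains MYL6 (0.08, interval 0.04 to 0.12) and MYL12B (0.13, interval 0.08 to 0.17) were above it. The actin genes have many processed copies in the genome, to which reads can be assigned.

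All 11 measured integrins and other matrix receptors were below 0, with a median of -0.14. ITGA3, the laminin receptor subunit alpha 3, had 446 CPM in the mock and 343 CPM in the knockout library, a log2 ratio of -0.38 (-0.43 to -0.33). ITGA2, the collagen receptor subunit alpha 2, had 95.2 CPM in mock and 73.9 CPM in knockout cells (log2 ratio -0.37, interval -0.47 to -0.26). LAMA5, a laminin chain, had 96.7 CPM in the mock and 73.02 CPM in the knockout library, a log2 ratio of -0.41 (-0.51 to -0.30). LAMA3 (0.18, interval 0.03 to 0.33) and COL17A1, at 3.44 and 5.74 CPM (0.72, interval 0.28 to 1.20), were above 0. Of 23 measured invasion proteases and their inhibitors, 19 were below 0 and 7 at or below -0.3 (30.4%, against 6.27%), with a median of -0.18. ADAM9, a membrane metalloprotease, had 238 CPM in mock and 183 CPM in knockout cells (log2 ratio -0.38, interval -0.45 to -0.31). CTSL, cathepsin L, had 78.7 and 59.1 CPM (-0.41, interval -0.53 to -0.30), PLAU, urokinase, 60.2 and 47.1 CPM (-0.35, interval -0.49 to -0.22), and SPINT2, an inhibitor of serine proteases, 321 and 243 CPM (-0.40, interval -0.46 to -0.34). The list thus held both proteases and inhibitors among its lower members, and ST14, matriptase, was above 0 at 0.13 (0.05 to 0.21).

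Epithelial junction genes were below 0 in 25 of 29 cases, with a median of -0.11 (-0.079 with libraries scaled by their totals). Only 1 member was at or below -0.3 (3.45%, against 6.27% of all measured genes), so the shift was small. CLDN4 (-0.21, interval -0.29 to -0.14) and CLDN7 (-0.18, interval -0.25 to -0.10), claudins of tight junctions, CTNND1, the p120 catenin (-0.20, interval -0.27 to -0.14), and DSG2, a desmosomal cadherin (-0.30, interval -0.35 to -0.24), show the size. Among regulators of epithelial state, 11 of 13 were below 0. ESRP1, a splicing regulator, had 114 and 96.6 CPM (-0.24, interval -0.33 to -0.14). The paralogs SNAI1 and SNAI2, repressors of CDH1, differed: SNAI1 had 15.9 and 11.9 CPM (-0.41, interval -0.68 to -0.15) and SNAI2 7.896 and 12.1 CPM (0.61, interval 0.31 to 0.93). Among keratins, KRT8 (-0.12, interval -0.14 to -0.09) and KRT19 (-0.11, interval -0.13 to -0.09) were slightly below 0, KRT7 had 0.09 (-0.03 to 0.22), and KRT80 stood alone at or above 0.3.

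In lists of WNT, TGF-beta and Hippo signalling 65.5%, 75% and 73.1% of members were below 0, against 52.7% of all measured genes. Feedback genes stood on both sides. At or below -0.3 were 6 WNT members (20.7%, against 6.27%), 3 TGF-beta members (12.5%) and 2 Hippo members (7.69%). At or above 0.3 were 2 WNT members (6.9%, against 7.21%), 2 TGF-beta members (8.33%) and no Hippo member. Across the settings tried, the WNT median lay between -0.06 and -0.02. In WNT signalling (19 of 29 below 0, median -0.06), AXIN2, a feedback inhibitor, was higher at 4.73 and 8.87 CPM (0.89, interval 0.53 to 1.29), as was RNF43, a ligase that removes Frizzled receptors, at 55.9 and 71.7 CPM (0.36, interval 0.24 to 0.48). DKK1, a secreted inhibitor, was lower at 189.6 and 149.6 CPM (-0.34, interval -0.42 to -0.27), as was SOX9 at 99.7 and 80.00 CPM (-0.32, interval -0.42 to -0.22). In TGF-beta signalling (24 measured, 18 below 0, median -0.10), PMEPA1, a feedback inhibitor, was higher at 5.23 and 9.06 CPM (0.78, interval 0.42 to 1.16) and BAMBI, a decoy receptor, at 19.1 and 26.5 CPM (0.47, interval 0.27 to 0.67), while SMAD2 (-0.26, interval -0.36 to -0.16) and SMAD3 (-0.20, interval -0.29 to -0.11) were lower. In the Hippo list (19 of 26 below 0, median -0.10) CRIM1 had 42.2 and 28.7 CPM (-0.56, interval -0.73 to -0.39) and the coactivator WWTR1, also called TAZ, 60.8 and 50.7 CPM (-0.26, interval -0.39 to -0.13), whereas CYR61, a target of YAP, had 0.14 (0.02 to 0.27). In the NOTCH list (7 of 13 above 0, median 0.02) NRARP, a feedback inhibitor, had 18.2 and 13.5 CPM (-0.43, interval -0.68 to -0.18).

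Mitochondrial DNA is transcribed as long precursors that are cut into 13 messages, all for subunits of respiratory complexes or ATP synthase, and all but ND6 come from the same strand. In the knockout library 9 of the 13 were above 0 and 4 below, with a median of 0.29, 5 at or above 0.3 (38.5%, against 7.21%) and 2 at or below -0.3 (15.4%, against 6.27%). Their ratios ran from -0.35 to 0.96, a spread that is wide for this pair. ND2, of complex I, had 2571 CPM in the mock and 4987 CPM in the knockout library, a log2 ratio of 0.96 (0.94 to 0.97). CYTB, of complex III, had 1976 CPM in mock and 3669 CPM in knockout cells (log2 ratio 0.89, interval 0.87 to 0.91). ND1, of complex I, had 1677 CPM in the mock and 2788 CPM in the knockout library, a log2 ratio of 0.73 (0.71 to 0.75). COX1, of complex IV, was lower, at 8480.0 CPM in mock and 6661 CPM in knockout cells (log2 ratio -0.35, interval -0.36 to -0.34). ND4 (0.07, interval 0.06 to 0.09), COX2 (0.06, interval 0.04 to 0.07) and ND5 (-0.04, interval -0.06 to -0.02) were close to their mock level.

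Messages of the same complex thus differed in direction, and so did neighbours cut from the same precursor. Within complex I, ND1 and ND2 were higher, ND3 was at 0.29 (0.26 to 0.32), and ND4L (-0.25, interval -0.29 to -0.21) and ND6 (-0.30, interval -0.35 to -0.26) were lower. Within complex IV, COX1 was lower and COX3 higher (0.31, interval 0.30 to 0.32). ATP6 had 0.46 (0.45 to 0.48) and ATP8 0.29 (0.24 to 0.34), but these genes overlap on the DNA, as do ND4L and ND4, and reads of the overlaps can be counted for either. These messages and both mitochondrial ribosomal RNAs together took 5.16% of the mock and 5.93% of the knockout counts. Copies of mitochondrial sequence in the nuclear genome can also receive reads, and their part was not tested.

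**Figure D5:**
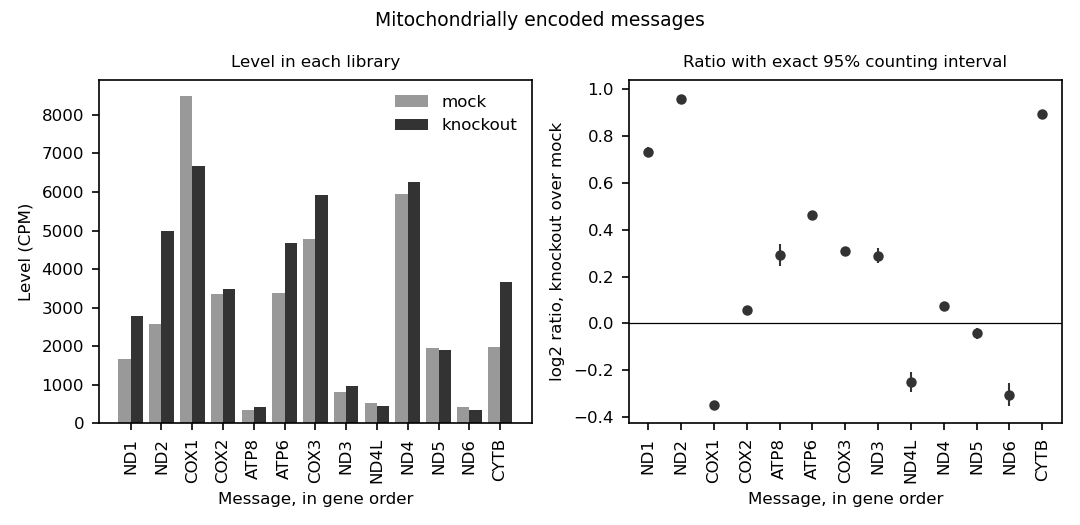
Left, level in CPM of the 13 mitochondrially encoded messages in the mock (grey) and knockout (black) library; right, log2 ratio of knockout over mock with its exact 95% counting interval, both in gene order around the circle. ND1, ND2 and CYTB stand highest, and COX1, ND4L and ND6 lie below 0.

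Nuclear genes of oxidative phosphorylation, those of complex II included, did not share the shift. Of 73 measured, 34 were above 0 and 39 below, with a median of -0.01 (0.031 with libraries scaled by their totals). None reached 0.3 in either direction, against 7.21% of all measured genes upward and 6.27% downward. ATP5B, the catalytic subunit of ATP synthase, had 1850.3 and 1641 CPM (-0.17, interval -0.20 to -0.15), SDHB, of complex II, 198 and 170.0 CPM (-0.22, interval -0.29 to -0.15), and UQCRB, of complex III, 355 and 404 CPM (0.19, interval 0.14 to 0.23). TCA cycle and glutamine genes were lower in 19 of 23 cases, with a median of -0.14 and 3 at or below -0.3 (13%, against 6.27%). SUCLG2, of succinyl-CoA ligase, had 85.03 CPM in the mock and 66.2 CPM in the knockout library, a log2 ratio of -0.36 (-0.47 to -0.25). PDHB, of pyruvate dehydrogenase, had 71.6 CPM in mock and 56.8 CPM in knockout cells (log2 ratio -0.33, interval -0.46 to -0.21). GLUD1, glutamate dehydrogenase, had 239 CPM in the mock and 190.1 CPM in the knockout library, a log2 ratio of -0.33 (-0.39 to -0.26). Cholesterol and fatty acid synthesis genes were split, 20 above and 18 below 0, with the mevalonate kinase MVK at 0.46 (0.27 to 0.66), HMGCS1 at 0.22 (0.10 to 0.34) and CYP51A1 at -0.27 (-0.35 to -0.19).

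Retroviral RNA and DNA can be sensed in the cell and induce interferon genes, and the APOBEC3 enzymes edit retroviral DNA. Interferon and RNA sensing genes had 24 of 38 measured members above 0 and a median of 0.05, with 4 at or above 0.3 (10.5%, against 7.21%) and 4 at or below -0.3 (10.5%, against 6.27%). OAS3, a sensor of double-stranded RNA, had 48.1 CPM in mock and 59.9 CPM in knockout cells (log2 ratio 0.32, interval 0.19 to 0.45). IFIH1, the RNA sensor MDA5, had 13.8 CPM in the mock and 17.2 CPM in the knockout library, a log2 ratio of 0.31 (0.07 to 0.56). ISG20, an antiviral exonuclease, was lower at 5.78 CPM in mock and 3.06 CPM in knockout cells (log2 ratio -0.89, interval -1.43 to -0.42), and IRF9, the DNA-binding part of the interferon-induced factor, at 7.48 CPM in the mock and 4.63 CPM in the knockout library, a log2 ratio of -0.68 (-1.12 to -0.28). The best counted of these 4, OAS3, was thus higher, while IFIH1, ISG20 and IRF9 are under 20 CPM. HLA class I genes had a median of 0.04, with B2M at 49.1 and 58.8 CPM (0.26, interval 0.13 to 0.39) and HLA-B at 65.2 and 72.6 CPM (0.15, interval 0.04 to 0.27); reads of HLA genes can be assigned to one another. All 3 measured APOBEC3 genes were above 0, with APOBEC3B at 5.23 and 7.37 CPM (0.48, interval 0.11 to 0.88) and APOBEC3F at 13.4 and 16.5 CPM (0.30, interval 0.06 to 0.55). In the NF-kB list 8 of 17 measured members were above 0 and 9 below, with a median of -0.02. At or above 0.3 were 3 (17.6%, against 7.21%), and none was at or below -0.3. Among the higher ones, CXCL8, interleukin 8, had 15.98 and 23.5 CPM (0.55, interval 0.34 to 0.77) and RELB 24.1 and 33.5 CPM (0.47, interval 0.29 to 0.65).

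Of 12 listed endogenous retrovirus loci with a gene symbol, only 3 were measured, and the intervals of their ratios all held 0. The others did not reach 5 CPM in either library, so nothing is said of them here. ERVK3-1 had 33.4 CPM in mock and 36.1 CPM in knockout cells (log2 ratio 0.11, interval -0.05 to 0.28). ERVMER34-1 had 20.6 CPM in the mock and 20.1 CPM in the knockout library, a log2 ratio of -0.03 (-0.25 to 0.18). HHLA3, named for its link with HERV-H long terminal repeats, had 19.5 CPM in mock and 22.1 CPM in knockout cells (log2 ratio 0.18, interval -0.03 to 0.39). Of the 23 measured genes that silence retroelements, such as H3K9 methyltransferases and DNA methyltransferases, 11 were above 0 and 12 below, with a median of -0.02. DNMT1 had 336 and 382 CPM (0.19, interval 0.14 to 0.24), HELLS, a chromatin remodeller, 97.4 and 111 CPM (0.19, interval 0.10 to 0.28), and the methyltransferase EHMT1 78.4 and 68.5 CPM (-0.20, interval -0.31 to -0.08).

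Large housekeeping groups hardly differed. Cytosolic ribosomal protein genes had a median of -0.03 over 73 members (0.0087 with libraries scaled by their totals), proteasome genes -0.02 over 32 and translation initiation factors -0.04 over 37, with no member of the 3 lists at 0.3 or beyond in either direction. Heat shock protein genes had a median of -0.05, with HSPA9, the mitochondrial HSP70, at -0.32 (-0.36 to -0.28) and HSP90AA1 at 0.27 (0.26 to 0.29). Splicing factors had a median of -0.04, with HNRNPA2B1 at -0.34 (-0.37 to -0.31) and the kinase CLK1 at 0.35 (0.24 to 0.45).

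Ratios also moved slightly with properties of the genes. Among the 10214 measured protein-coding genes, the fifth with the highest GC content had a median of 0.04, against -0.03 in the fifth with the lowest. The fifth of them with the lowest mean level had 0.05, against -0.04 in the highest. These differences are small beside the list medians of 0.20 and -0.20. They are of like size to smaller medians given above, such as WNT (-0.06) and the unfolded protein response (-0.05). With a trend on GC content and length removed, the medians of DNA replication, mitosis and HIF targets were 0.19, 0.20 and -0.20. A trend on level was not removed. Between chromosomes, medians of protein-coding genes ran from -0.06 (chromosome 4) to 0.04 (chromosome 19). Near the minimum level, the 283 genes whose higher level lay between 5 and 6 CPM had a median of 0.06 and a standard deviation of 0.333, and the 395 genes just below it, between 4 and 5 CPM, 0.05 and 0.378.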

How the data were processed

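Trizol RNA was made into strand-keeping libraries (NEBNext Ultra II Directional kit), per the labels' protocols. TopHat and the build GRCh38 were used, per the submitters' processing notes. Counting tool, annotation release and strand use were not given in the sources used here. As values, the authors deposited raw read counts per gene symbol (58173 rows, 52402 symbols). Repeated symbols (2687, in 8458 rows) were summed. The series' totals were between 15145483 and 22057693 counts. Groups were taken from the sample titles.

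The 2 SKOV3-labelled libraries were scaled by TMM factors of edgeR 4.0.16 (R 4.3.3), 0.987 for mock and 1.01 for knockout. Log2 ratios used a prior count of 2; exact 95% intervals came from Clopper-Pearson bounds on the knockout share of a gene's counts, without the prior. Reads had no molecular identifiers, so intervals and floors (3 counts) cover counting error only. The interval script was checked on simulated data. With 1 library per group no test was run. GC content and length came from GENCODE 29 (96.8% of genes matched), coordinates and promoters from RefSeq GRCh38.p14.

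The members and gene lists were chosen with earlier results of these data known. Named genes were the 12 highest and 12 lowest by the interval limit nearest 0 (leaving out small RNAs, antisense, LOC, LINC and clone symbols), up to 6 list members with and 2 against each median by the same limit, RB1, CCNB1, NUPR1, retroviral loci, mitochondrial messages and genes past 2-fold; others were named for their role after their values were seen. A few list members that the rule names are counted in their lists but not reported here. Alternatives were other scalings (DESeq2 1.42.0 size factors among them), level filters, prior counts, a size of 0.5, mitochondrial rows left out and a GC and length trend removed (spline, 5 degrees of freedom).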

Additional observations from a re-analysis of the deposited data

Results flagged for a closer look

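Opposite sides of 0 in the SKOV3-labelled and the OVCAR3-labelled pair, each with 1 library a side, were common: 3527 of 10820 measured genes stood so, with an OVCAR3-labelled ratio of at least 0.3 in size and an interval clear of 0, as did 99 of 385 genes of the naming rule. Of 52 lists, 17 had medians of opposite sign. Over the same measured genes the OVCAR3-labelled pair had a median of -0.35, with 7144 below 0 and 3675 above. A gene above 0 in the SKOV3-labelled pair is therefore often on the opposite side, whatever its function. Given here are 1 list with most of its members on opposite sides and 5 of the 12 highest and 12 lowest genes. In every case the difference between the pairs was not tested, and in the OVCAR3-labelled knockout library mitochondrial messages and mitochondrial ribosomal RNAs together took 21.9% of the counts, against 5.16% to 5.93% in the other 3. Replication-dependent histones had a median log2 ratio of 0.25 in the SKOV3-labelled pair (6 of 8 above 0) and -0.99 in the OVCAR3-labelled pair (7 of 8 below 0). These members were chosen by their SKOV3-labelled levels. HIST1H2AC, HIST1H4B and HIST2H2BF passed the filter through the SKOV3-labelled knockout library only. The SKOV3-labelled median is thus tilted upward by the filter, and the 2 medians are not alike in how members were chosen. DHRS2 had 0.93 and -2.76, KRT80 had 0.82 and -3.94, and the readthrough locus BIVM-ERCC5 had 1.02 and -0.66. In the opposite sense, NEAT1 had -0.65 and 3.26, and ARHGAP29 had -0.59 and 0.50.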

How the results depend on the processing

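Depth limits the single genes: ISG20, at 5.78 and 3.06 CPM, had an interval from -1.43 to -0.42. Scaling by library totals, TMM over all 4 libraries, DESeq2 size factors or with mitochondrial rows left out moved every ratio by 0.04 or less. Other level filters left each ratio as it was, and other prior counts cannot change a sign. None of these could therefore change the sign of a named gene at or beyond 0.3 in either direction. With a GC and length trend removed, no such gene changed sign. Of 3832 values of 391 genes, 3774 stayed within the gene's counting interval, those under level filters by construction. The 58 that did not came from library totals (43) and from the trend removed (15). Medians of 16 of 52 lists, none larger than 0.11 in size, changed sign under some alternative. Each main median was given a 95% binomial range for a median, taken from the ranked ratios of the list's members. This range treats members as independent and served only as a yardstick. With library totals, which shift all ratios by 0.04, 7 medians left that range. ERK cascade went to -0.058, antioxidant genes to 0.013, epithelial junctions to -0.079 and nuclear oxidative phosphorylation to 0.031. Ribosomal proteins went to 0.0087, ribosome biogenesis and MYC to -0.0053, and lysosome and autophagy to 0.0197. The same scaling moved the genes at or above 0.3 from 780 to 1020 and those at or below -0.3 from 678 to 488. Counts of genes follow the filter and the size by construction. At or above 0.3 were 5383 genes with no filter, 1608 at 1 CPM and 322 at 20 CPM, and 199 were at or above 0.5. At or below -0.3 were 6217, 1382 and 354, and 122 were at or below -0.5. Past 2-fold upward were 1127, 107 and 0 genes under the same 3 filters and 9 with library totals; downward, 1204, 113 and 4 under the filters. No replicate could be left out, since each group holds 1 library. No paired analysis was possible because the groups share only 1 replicate number.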

Other observations

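Gene groups outside the pathways above also had members away from 0. Small nucleolar RNA host genes, whose introns carry the guide RNAs of ribosome maturation and whose spliced RNAs decay quickly, had 12 of 20 measured members above 0 and a median of 0.11, with 4 at or above 0.3 (20%, against 7.21% of all measured genes) and 3 at or below -0.3 (15%, against 6.27%). SNHG1 had 373 CPM in the mock and 472 CPM in the knockout library, a log2 ratio of 0.34 (0.29 to 0.39). GAS5 had 608 CPM in mock and 714 CPM in knockout cells (log2 ratio 0.23, interval 0.19 to 0.27). SNHG19 was lower, at 34.5 CPM in the mock and 20.6 CPM in the knockout library, a log2 ratio of -0.74 (-0.94 to -0.55), and so was DANCR, at 34.8 CPM in mock and 25.6 CPM in knockout cells (log2 ratio -0.44, interval -0.62 to -0.27). The hosts thus gave no common direction.

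Circadian clock genes had a median of 0.00 to 2 decimals, but TEF, an output transcription factor of the clock, had 22.1 and 32.01 CPM (log2 ratio 0.53, interval 0.35 to 0.72) and its relative HLF 8.49 and 11.9 CPM (0.48, interval 0.18 to 0.79). In the Polycomb list (median -0.03), EZH2, the H3K27 methyltransferase, had 89.7 and 109 CPM (0.28, interval 0.19 to 0.38) and AEBP2, an accessory subunit of the same complex, 63.8 and 49.4 CPM (-0.37, interval -0.50 to -0.24). Histone lysine methylation genes had 18 of 30 members above 0 (median 0.02), with the H3K4 methyltransferases KMT2C (0.25, interval 0.13 to 0.37) and KMT2D (0.25, interval 0.17 to 0.34) above and the demethylase KDM1B (-0.39, interval -0.53 to -0.26) below. Cilium genes had 18 of 36 on each side of 0, with the transport genes IFT22 (0.39, interval 0.20 to 0.59) and IFT88 (0.36, interval 0.11 to 0.61) above and IFT43 (-0.32, interval -0.51 to -0.13) below. Lysosome and autophagy genes had a median of -0.02, with ATG7, of autophagosome formation, at 28.7 and 21.3 CPM (-0.43, interval -0.63 to -0.23) and ATP6V0D1, of the proton pump, at 33.9 and 42.8 CPM (0.33, interval 0.18 to 0.49).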
